A study of Mus musculus with 4 samples.

Results

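A set of 10 genes of the BAF chromatin remodelling complex were followed in mouse embryonic stem cells (ESCs) kept for 24 h with a deacetylase inhibitor. BAF is the mammalian SWI/SNF complex. Its ATPase slides and evicts nucleosomes, and the subunits around the ATPase decide where the complex binds. Several of its places can be filled by alternative paralogs, and the choice changes as ESCs become neural progenitors and progenitors become neurons. The ESC complex is built on Smarca4 (also called BRG1) and Smarcc1 (BAF155). Its actin-related subunit is Actl6a (BAF53a), and Dpf2 (BAF45d) is a PHD finger subunit of it. Progenitors add Smarcc2 (BAF170) and carry Phf10 (BAF45a). Neurons carry Actl6b (BAF53b) with Dpf1 (BAF45b) or Dpf3 (BAF45c), and Smarca2 (BRM), the alternative ATPase, becomes more abundant as cells differentiate.

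The 10 genes were chosen by name for this switch, and all 10 are among the 28250 genes with an expression value. The study compared TBV2 ESCs after 24 h with solvent (2 libraries) or with 5 µM MS-275 (2 libraries). TBV2 is a line of 129/SvP origin that depends on feeder cells, and it was kept with LIF. The paper used it as wild type or with an EGFP transgene, and does not state which of these was sequenced. MS-275 is an inhibitor of the class I histone deacetylases. All 4 libraries came from poly(A)-selected RNA, and the solvent libraries carried no inhibitor. Expression is given as the normalized expression signal that the authors deposited, a value per gene that falls with the length of the gene as well as rising with its reads. A second readout came from the deposited alignments, counted as distinct alignment positions over exons. In a fit with exon length, the log2 signal of replicate 1 had a slope on log2 positions of 0.915 (solvent) and 0.872 (MS-275). For replicate 2 the slope was 1.18 (solvent) and 1.16 (MS-275). Signal ratios between genes may therefore not be on the same scale in the 2 replicates. Values given as a pair are those of replicate 1 and replicate 2, in that order. The distinct positions numbered 5519716 to 7260887 per library over all genes, and the count of positions sets the counting error of a gene. The labels do not say whether the libraries of a group came from separate cultures, so the p-values measure only the spread between these samples, which may be technical.

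Libraries with the same replicate number resembled each other apart from the treatment. Their deviations from the group means correlated at r = 0.764 across 20336 genes (genes are not independent replicates). The fits were therefore made without and with the replicate number as a block. The fit with the block leaves 1 residual degree of freedom per gene and rests on the spread shared over all genes. The median log2 fold change (MS-275 over solvent) of all genes tested was 0.20. It was -0.01 with median-ratio scaling and -0.03 with quantile normalization, so changes of the members are to be read against this shift. The alignments filed for replicate 1 fitted the values of replicate 2 of the same condition better, and the reverse, with r = 0.922 against 0.892 for the values of solvent replicate 1. An exchange within a condition leaves the comparison of conditions without the block as it is. The fit with the block and the values by pair would change if a single condition were exchanged. These are bulk samples, in which fewer cells of a type and less RNA per cell cannot be told apart.

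Of the 10 genes 2 were higher with MS-275, the ATPase Smarca2 and the PHD finger gene Dpf1, when the replicate number was a block. Smarca2 was 3.24 times and Dpf1 2.60 times its solvent mean. The block did not call any member lower, and without it no member passed at an adjusted p of 0.05. The background for these counts was 21% of all 20336 genes called higher and 6.46% called lower with the block, and 0.00492% called higher and 0% called lower without it (1 gene of 20336 higher). Median-ratio scaling with the block turned the calls over all genes from 4277 higher and 1314 lower to 3379 and 2864, and kept Smarca2 and Dpf1 among those called higher. Without the block 2 members had an unadjusted p under 0.05, both higher. limma-voom on distinct positions without the block called 1 member higher (Smarca2) and 1 lower (Phf10). The background there was 14% of 15028 genes higher and 9.8% lower. A share of 2 in 10 is near the 21% of all genes, so the count by itself says nothing particular about the BAF switch. For the members not called, the log2 fold changes of the values against the median of all genes were also taken. They were -0.35 for Smarca4, -0.38 for Smarcc1, -0.47 for Smarcc2 and -0.46 for Actl6a. For Phf10 the value was -0.32, for Dpf2 -0.51, for Actl6b 0.24 and for Dpf3 0.46.

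The promoters of the 2 genes that rose together and of their ESC counterparts Smarca4 and Dpf2 are shown for comparison of their sequence. They are RefSeq sequences on GRCm38.p6, 250 bases before to 50 after the start of the gene, 5′ to 3′ on the strand of the gene. Capitals mark the GC box, searched as GGGCGG and on the other strand as CCGCCC, which is the binding sequence of Sp1-type factors.
Smarca2 promoter: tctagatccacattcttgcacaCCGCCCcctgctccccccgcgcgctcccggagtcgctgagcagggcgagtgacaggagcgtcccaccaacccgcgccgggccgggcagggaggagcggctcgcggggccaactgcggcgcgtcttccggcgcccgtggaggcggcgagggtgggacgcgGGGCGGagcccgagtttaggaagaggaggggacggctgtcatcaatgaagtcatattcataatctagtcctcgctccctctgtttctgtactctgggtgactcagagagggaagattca
Dpf1 promoter: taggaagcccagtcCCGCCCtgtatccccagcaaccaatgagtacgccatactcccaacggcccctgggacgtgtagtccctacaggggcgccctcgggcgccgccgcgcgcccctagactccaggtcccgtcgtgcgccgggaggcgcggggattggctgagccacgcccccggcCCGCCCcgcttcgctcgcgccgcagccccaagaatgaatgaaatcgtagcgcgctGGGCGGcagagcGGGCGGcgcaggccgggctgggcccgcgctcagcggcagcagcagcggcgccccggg
Smarca4 promoter: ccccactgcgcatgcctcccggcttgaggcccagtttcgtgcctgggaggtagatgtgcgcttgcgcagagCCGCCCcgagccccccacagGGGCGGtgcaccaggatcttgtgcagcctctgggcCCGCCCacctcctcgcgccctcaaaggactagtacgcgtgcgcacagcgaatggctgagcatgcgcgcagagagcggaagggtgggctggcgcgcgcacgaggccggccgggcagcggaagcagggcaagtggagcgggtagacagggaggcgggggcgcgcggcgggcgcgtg
Dpf2 promoter: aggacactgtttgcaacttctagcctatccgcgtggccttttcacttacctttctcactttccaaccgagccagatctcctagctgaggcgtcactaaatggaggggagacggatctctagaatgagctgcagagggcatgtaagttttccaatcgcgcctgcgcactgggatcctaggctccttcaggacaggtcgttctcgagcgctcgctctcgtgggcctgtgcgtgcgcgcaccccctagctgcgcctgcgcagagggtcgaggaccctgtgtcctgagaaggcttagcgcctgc
They lie at chr19:26604910-26605209 (Smarca2, plus strand), chr7:29303755-29304054 (Dpf1, plus strand), chr9:21615919-21616218 (Smarca4, plus strand) and chr19:5912822-5913121 (Dpf2, minus strand). The Smarca2 promoter held 2 GC boxes and 29 CpGs, the Dpf1 promoter 4 and 39, the Smarca4 promoter 3 and 33, and the Dpf2 promoter 0 and 20. The median of all 32851 promoters of this length was 7 CpGs, and 35.7% of them held a GC box. Of the 10 members 9 had a GC box, including genes that rose and genes that did not, so its presence did not divide them. The CCAAT box (CCAAT or ATTGG, in 37.4% of all promoters) occurred 2 times in Dpf1, 1 time in Dpf2, 3 times in Dpf3 and 3 times in Actl6b, and in none of the other 6 windows. The letters TATAAA (either strand, 13.6% of all promoters) were in none of the 10 windows. A match is a description of letters and no evidence of binding.

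The levels of the members spanned the whole range of expression. In both groups Actl6a, Smarcc1 and Phf10 were highest, Smarca4 and Dpf2 followed, and Actl6b and Dpf3 were at the limit of detection. In the solvent libraries the mean signal was 0.657 ± 0.228 for Actl6a, 0.541 ± 0.167 for Smarcc1, 0.481 ± 0.102 for Phf10, 0.220 ± 0.0562 for Smarca4 and 0.204 ± 0.0417 for Dpf2 (SD, n = 2). Smarcc2 stood at 0.102 ± 0.0128, Dpf1 at 0.0326 ± 0.00637 and Smarca2 at 0.0173 ± 0.00334. The neighbouring means of Actl6a, Smarcc1 and Phf10 differed by less than the larger of their SDs, and so did those of Smarca4 and Dpf2. With MS-275 the mean of Dpf1 rose from below that of Smarcc2 to 0.0848, just above the 0.0838 of Smarcc2. Among the 28250 genes Actl6a lay at or above the 95.5th percentile of each library, and Smarca2 moved from the 55.7th and 57.5th percentile in solvent to the 63.0th and 68.2nd with MS-275.

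**Figure D1:**
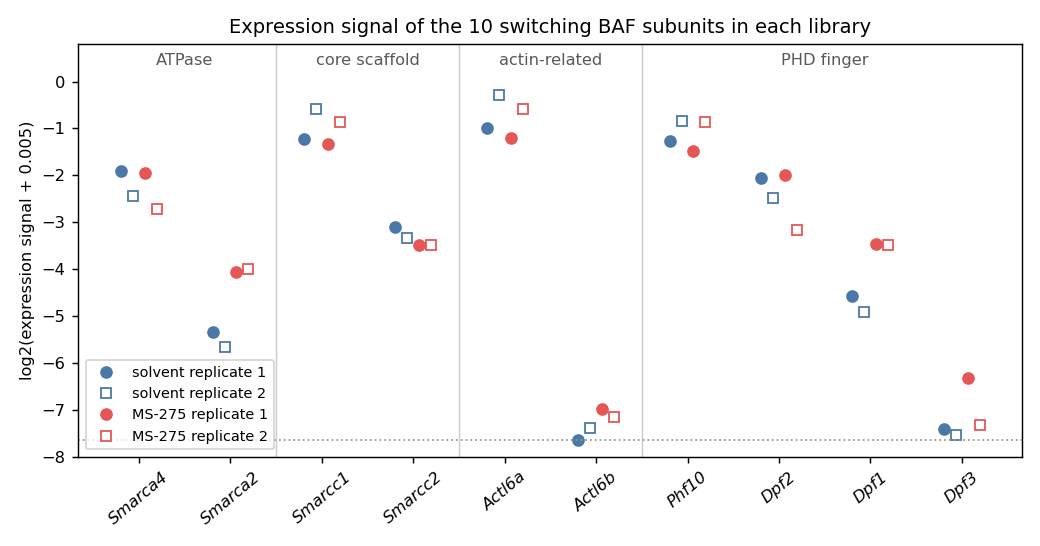
Expression signal of each of the 10 subunits, as log2(signal + 0.005), by place in the complex; circles are replicate 1, squares replicate 2, blue solvent and red MS-275, and the dotted line is a signal of 0. Both red points of Smarca2 and of Dpf1 lie above both blue points, while those of Smarca4, Smarcc1, Actl6a, Phf10 and Dpf2 are interleaved with the blue ones.

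Smarca4 and Smarca2 are the mutually exclusive ATPases. Smarca2 lies at chr19:26679650-26852811 (mm9, plus strand, 38 merged exon blocks) and Smarca4 at chr9:21420613-21508674 (mm9, plus strand, 35 blocks). The Smarca2 signal was 0.0196 and 0.0149 in solvent replicates 1 and 2, and 0.0546 and 0.0572 in MS-275 replicates 1 and 2. Both MS-275 libraries were above both solvent libraries, by 2.79 times in pair 1 and 3.84 times in pair 2. Over all tested genes, 32.3% had both MS-275 values above both solvent values and 12.0% had them below. In limma this was a log2 fold change of 1.46 ± 0.59 (SE; adjusted p = 0.238) without the block and of 1.46 ± 0.30 (adjusted p = 0.0018) with it. Against the median of all genes the change was 1.26.

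The alignments gave Smarca2 65 and 49 distinct positions in the solvent libraries and 205 and 222 in the MS-275 libraries. The exact Poisson 95% intervals were 50.2 to 82.8 and 36.3 to 64.8 against 178 to 235 and 194 to 253, so the groups were apart by more than the counting error, the only error these intervals cover. limma-voom on the positions gave a log2 fold change of 1.80 ± 0.29 with an adjusted p of 0.0071 without the block and 1.81 ± 0.24 with 2.47e-05 with it. In that readout 14% of 15028 genes were called higher and 9.8% lower without the block, and 24.7% and 22.5% with it. Smarca2 was also called with each of the 4 libraries left out in turn, with log2 fold changes of 1.65 to 1.97 and adjusted p from 0.0022 to 0.0117. Counting every alignment in place of distinct positions kept the size (1.84) and lost the call without the block (adjusted p = 0.0599 in limma-voom). Only the replicate 1 files repeat positions (53.2% and 54.4% of alignments), so wherever every alignment was counted, the replicates of a group were not counted alike. The part of this in the lost call was not tested.

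Smarca4 was not called. Its signal was 0.260 and 0.180 in the solvent libraries and 0.255 and 0.147 in the MS-275 libraries, and the groups overlapped. limma gave a log2 fold change of -0.15, with a 95% interval of -1.10 to 0.79 (adjusted p = 0.932) without the block and of -0.62 to 0.31 (adjusted p = 0.645) with it. On distinct positions it was -0.21 (-0.47 to 0.04, adjusted p = 0.157 with the block in limma-voom). The widest of these intervals leaves room for a fall of up to 1.10 on the log2 scale.

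The Smarca2 positions were more frequent towards the 3′ end of the gene. With the exons cut into 30 equal bins, the 10 bins nearest the 3′ end held 78.5% (95% Wilson interval 67.0 to 86.7) and 59.2% (45.2 to 71.8) of the positions in the solvent libraries, and 63.4% (56.6 to 69.7) and 47.7% (41.3 to 54.3) in the MS-275 libraries. In Smarca4 the same bins held 24.8% to 36.6%. The annotation holds a short Smarca2 transcript that starts inside the gene at position 26822893 of chromosome 19 (mm9). The exons before that start make up 68.6% of the exon bases. They held 15 and 20 positions in the solvent libraries and 80 and 117 with MS-275, while the exons after it held 50 and 29 and then 125 and 105. Both parts had more positions with MS-275 in every library, and the share of positions before the inner start was 23.1% and 40.8% in solvent and 39.0% and 52.7% with MS-275, so that the groups overlapped. Short and full-length transcripts share the later exons, and alignments of this length do not count them apart.

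**Figure D2:**
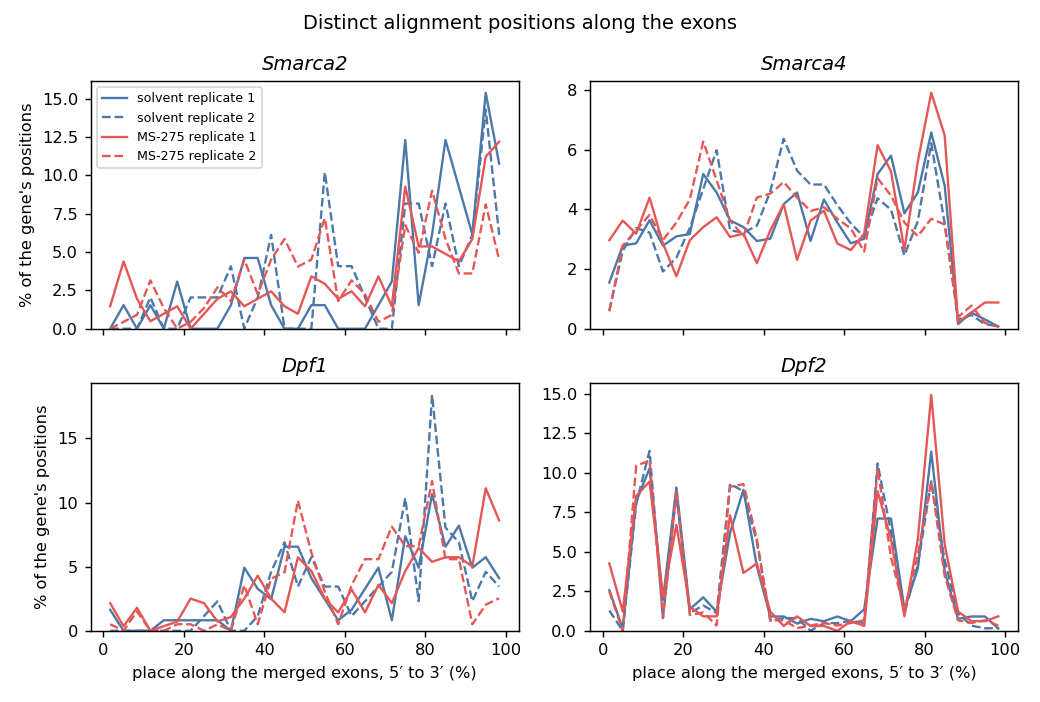
Share of a gene's distinct alignment positions in each of 30 equal bins along its merged exons, 5′ to 3′, for Smarca2, Smarca4, Dpf1 and Dpf2; blue is solvent, red MS-275, solid lines replicate 1 and dashed lines replicate 2. Smarca2 and Dpf1 gather towards the 3′ end in all 4 libraries, and the peaks of Dpf2 stand at the same places in all 4.

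Smarcc1 and Smarcc2 form the core on which the complex is assembled. Smarcc1 (chr9:110034541-110142682, mm9, plus strand) had a signal of 0.423 and 0.659 in the solvent libraries and of 0.393 and 0.546 in the MS-275 libraries. The groups overlapped, since replicate 2 was above replicate 1 in both conditions by more than either pair differed. limma gave -0.19 ± 0.51 on the log2 scale (adjusted p = 0.932) without the block and -0.19 ± 0.25 (adjusted p = 0.617) with it. On distinct positions, 2407 and 2364 in solvent against 1635 and 2326 with MS-275, it was -0.38 ± 0.10 and over all 4 libraries passed with the block (adjusted p = 0.0069 in limma-voom) and not without it (0.0694). Without the block and with 1 library left out it ranged from -0.46 (without MS-275 replicate 2) to -0.29 (without MS-275 replicate 1).

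Smarcc2 (chr10:127896292-127927229, mm9, plus strand) had 0.111 and 0.0934 in solvent and 0.0839 and 0.0837 with MS-275. Both MS-275 values were below both solvent values, by a small margin, as for 12.0% of all genes tested. It was not called, with -0.27 on the log2 scale (95% interval -0.77 to 0.23, adjusted p = 0.423) in limma with the block (adjusted p = 0.847 without it) and -0.33 (adjusted p = 0.0816) in limma-voom on distinct positions with the block. The progenitor form of the core was thus not measured higher in either readout.

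Actl6a and Actl6b are the actin-related subunits exchanged when progenitors leave the cell cycle. Actl6a (chr3:32607468-32625890, mm9, plus strand) had a signal of 0.496 and 0.818 in the solvent libraries and 0.427 and 0.658 in the MS-275 libraries, with overlapping groups. Its change was -0.26 ± 0.26 on the log2 scale (adjusted p = 0.484 in limma with the block, 0.906 without it). Of all its exon bases, 16.2% also belong to another coding gene. Reads there cannot be assigned to a single gene, and these bases were left out of the count of positions.

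Actl6b (chr5:137994745-138010810, mm9, plus strand), the neuronal form, was nearly absent from every library. Its signal was listed at 0 and 0.00099 in the solvent libraries and was 0.00289 and 0.002 in those with MS-275. Its exons held 3 and 0 distinct positions in the solvent libraries and 2 and 3 with MS-275. The exact Poisson intervals, 0.62 to 8.77 and 0 to 3.69 against 0.24 to 7.22 and 0.62 to 8.77, overlap fully, so a difference was not detectable at this depth. The fit on the values gave 0.44 ± 0.21 (adjusted p = 0.138 in limma with the block, 0.299 without it), a value that depends on the pseudocount and ranged from 0.11 to 1.28 over the settings with a block.

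The PHD finger subunits showed the second increase. Dpf1 (chr7:30088970-30102607, mm9, plus strand), a neuronal form, had a signal of 0.0371 and 0.0281 in the solvent libraries and of 0.0852 and 0.0845 in the MS-275 libraries. The MS-275 values were 2.30 and 3.01 times those of the same replicate in solvent, and the groups did not overlap. Both MS-275 values lay above both solvent values in 32.3% of all genes tested. limma gave 1.27 ± 0.50 on the log2 scale (adjusted p = 0.231) without the block and 1.27 ± 0.27 (adjusted p = 0.0023) with it. Against the median of all genes it was 1.07.

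Over distinct positions Dpf1 had 122 and 87 in solvent and 279 and 197 with MS-275. limma-voom gave 1.12 ± 0.21 on the log2 scale (adjusted p = 0.000509) with the block and 1.06 ± 0.36 (adjusted p = 0.0667) without it. Without the block, the limma-voom value was 0.68 (adjusted p = 0.174) when MS-275 replicate 1 was left out and 1.52 (adjusted p = 0.0039) when MS-275 replicate 2 was, so the call depended on which library was used. Like Smarca2, Dpf1 had few positions in the 10 bins nearest the 5′ end, 3.45% to 11.8%, and 54.8% to 64.4% in the 10 nearest the 3′ end.

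Dpf2 (chr19:5896516-5913010, mm9, minus strand), a PHD finger subunit of ESCs, had 0.234 and 0.175 in solvent and 0.245 and 0.106 with MS-275. The MS-275 libraries lay on either side of the solvent ones, with a log2 difference of 0.07 in pair 1 and -0.69 in pair 2. Over both pairs it was -0.31 ± 0.24 (adjusted p = 0.351 in limma with the block, 0.842 without it). Distinct positions were 661 and 623 against 328 and 603, with a log2 fold change of -0.60 ± 0.15 that over all 4 libraries passed with the block (adjusted p = 0.0046 in limma-voom) and not without it (0.0733). Without the block it was -0.34 (adjusted p = 0.243 in limma-voom) when MS-275 replicate 1 was left out and -0.88 (adjusted p = 0.0137) when MS-275 replicate 2 was. Of the 32-base words in the Dpf2 exons, 11.7% occur at a further place in the genome, as do 10.6% of those of Smarcc1, and reads made of such words have no single place.

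Phf10 (chr17:15081999-15129820, mm9, minus strand), a PHD finger subunit of proliferating progenitors, behaved differently in the readouts. Its signal was 0.409 and 0.554 in solvent and 0.351 and 0.544 with MS-275, a log2 fold change of -0.12 ± 0.24 (adjusted p = 0.750 in limma with the block, 0.959 without it). Against the median of all genes this change was -0.32. Its distinct positions were 1278 and 1224 in solvent and 672 and 885 with MS-275. In this readout it fell by 0.79 on the log2 scale, with an adjusted p of 0.0096 in limma-voom without the block and 8.86e-05 with it. It was called lower there with each library left out, at adjusted p of 0.0064 to 0.0455. Of all its exon bases 9.68% also belong to another coding gene and were left out of the count of positions. The part of this in the difference between the readouts was not tested. With every alignment counted it was -1.01 and was not called without the block (adjusted p = 0.128 in limma-voom).

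Dpf3 (chr12:84314732-84451882, mm9, minus strand), the other neuronal PHD finger subunit, cannot be measured well in these files. Of the 3608 32-base words of its counted exons, 3369 (93.4%) occur at a further place on chromosome 12 of mm9, and no library had an alignment position at any of them. The 239 words that occur once held 1 and 0 positions in the solvent libraries and 1 and 7 with MS-275. The deposited signal was 0.00084 and 0.00039 in solvent and 0.00757 and 0.00124 with MS-275. Both MS-275 values were above both solvent values, as for 32.3% of all genes tested, and the MS-275 values lay far apart. In limma its 0.66 ± 0.24 on the log2 scale missed the threshold with the block (adjusted p = 0.0563) and without it (0.335), and passed only when the block was joined to median-ratio scaling (0.56, adjusted p = 0.0496). The value was 0.15 without MS-275 replicate 1 and 1.16 without MS-275 replicate 2, and it ranged from 0.23 to 1.45 over the pseudocounts. In positions per 1000 unique words, MS-275 replicate 2 had 29.3 for Dpf3 beside 61.7 for Dpf1 and 42.5 for Smarca2, and the other 3 libraries had 0 to 4.18 for Dpf3.

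**Figure D3:**
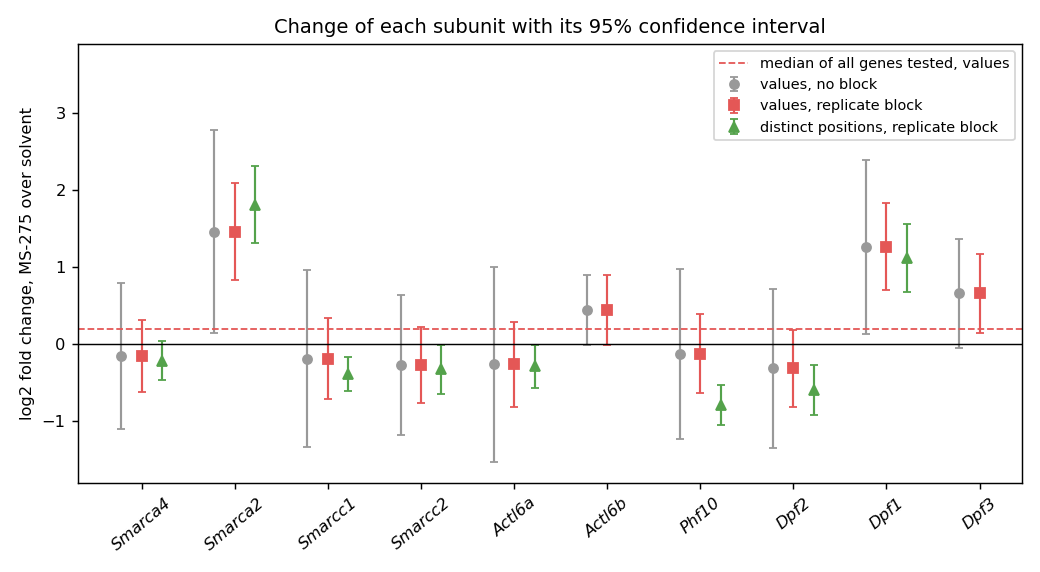
Log2 fold change of MS-275 over solvent for each subunit with its 95% confidence interval, from the values without a block (grey), the values with the replicate block (red) and the distinct positions with the replicate block (green); the dashed line is the median of all genes tested on the values, 0.20. Smarca2 and Dpf1 lie above the line in each of the 3 fits, and the green intervals of Phf10, Dpf2, Smarcc1, Smarcc2 and Actl6a lie below 0.

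Ratios of paralogs within a library compare the RNA of alternative subunits, and do not measure which subunit is in the complex. The Smarca2 signal was 7.55% and 8.26% of the Smarca4 signal in the solvent libraries and 21.4% and 38.8% in the MS-275 libraries. The log2 ratio moved by 1.62 between the group means, from -3.32 to -1.71, and the groups did not overlap. Short and full-length Smarca2 transcripts were not told apart in this ratio. The Dpf1 signal was 15.9% and 16.1% of that of Dpf2 in solvent and 34.7% and 79.7% with MS-275, a shift of 1.58. Against Phf10 it was 9.07% and 5.07% in solvent and 24.3% and 15.5% with MS-275, a shift of 1.39. On the signal, the stem cell or progenitor form was the higher one in every library.

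The scaffold ratio did not move in this way. Smarcc2 was 26.3% and 14.2% of Smarcc1 in solvent and 21.3% and 15.3% with MS-275, a shift of -0.08 that was -0.28 in pair 1 and 0.12 in pair 2. Actl6b reached at most 0.677% of Actl6a in any library. Its log2 ratio shifted by 0.70, and that of Dpf3 by 0.97 against Dpf2 and by 0.78 against Phf10, values set largely by the pseudocount. With 2 libraries against 2 the smallest p of a two-sided exact permutation test is 0.333. That p was reached by 5 of the 7 ratios, and the exceptions were Smarcc2 over Smarcc1 (p = 1 by the exact permutation test) and Dpf3 over Phf10 (p = 0.667 by the same test). It says only that the groups did not overlap, as was so for 32.3% (higher) and 12.0% (lower) of single genes tested. No such share was computed for ratios of other genes. The 7 ratios are not separate, since Dpf1, Dpf2, Dpf3 and Phf10 each enter more than 1 of them. Over distinct positions per exon length the shifts were 2.05 for Smarca2 over Smarca4, 1.72 for Dpf1 over Dpf2, 1.88 for Dpf1 over Phf10 and 0.06 for Smarcc2 over Smarcc1. In MS-275 replicate 1 Dpf1 then stood above Dpf2, with 79.1 against 50.5 positions per kb of exon, and it stood below Dpf2 in the other 3 libraries. By number of positions Dpf1 was below Dpf2 in MS-275 replicate 1 too, with 279 over 3529 exon bases against 328 over 6501. Several of the 30 bins of Dpf2 held few positions in every library, and their part in this order was not tested.

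**Figure D4:**
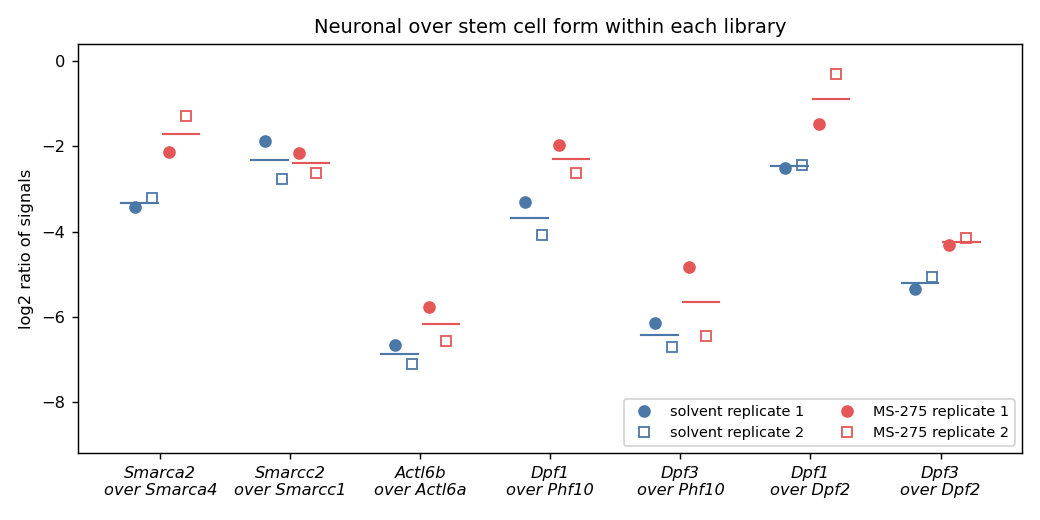
Log2 ratio of the signal of the neuronal or differentiated form over that of the stem cell or progenitor form in each library, computed as signal + 0.005. Circles are replicate 1, squares replicate 2, blue solvent, red MS-275, and bars the group means. Red points lie above blue points for Smarca2 over Smarca4 and for both Dpf1 ratios, and are interleaved with them for Smarcc2 over Smarcc1.

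By a rule that uses no test, at least 2-fold in both replicate pairs with values under 0.001 set to 0.001, 3 members were higher (Smarca2, Dpf1 and Actl6b) and 0 lower. The background was 11.5% of 28250 genes higher and 2.04% lower. Both solvent values of Actl6b (0 and 0.00099) were set to 0.001, against 0.00289 and 0.002 with MS-275. With the floor raised to 0.01, Smarca2 and Dpf1 met the rule, beside 1263 of 28250 genes higher and 362 lower. At 3-fold none of the 10 did, beside 1815 genes higher and 182 lower. The genes whose 4 values were nearest to those of Actl6a, the member with the highest mean, by Euclidean distance over the log2 values of the 4 libraries, were Pak1ip1 (distance 0.0477), Nufip2 (0.153) and Aimp1 (0.160).

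Of the 20 further subunits listed for the SWI/SNF complexes, 6 fell and 0 rose on the values in limma with the block, beside 6.46% of all genes lower and 21% higher. None was called in either direction without the block, where 5 had an unadjusted p under 0.05, all lower. With the block and median-ratio scaling 10 of them were called lower, and with quantile normalization 9. The number called lower over all genes was larger too under both scalings. The 20 subunits had a median log2 fold change of -0.36 beside 0.20 over all genes tested. The 6 that fell were Arid1a, Arid1b and Arid2, the ARID subunits that set complexes apart, with Bcl7a, Bcl11b and Bicral. Without the block their adjusted p in limma lay between 0.120 (Bicral) and 0.328 (Arid2). limma-voom on distinct positions without the block called the same 6 genes lower (6 of 6 shared) and none higher. Over all 15028 genes it called 9.8% lower and 14% higher. With the block it called 11 of the 20 lower and 1 higher (Ss18l1), beside 22.5% and 24.7% of all genes. With every alignment counted in place of distinct positions, 1 of the 20 was called lower without the block and 11 with it. The share over all genes was not taken for that count.

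Arid1a and Arid1b are the alternative DNA-binding subunits of BAF. Arid1a had a signal of 0.371 and 0.592 in solvent and 0.194 and 0.174 with MS-275, and fell by 1.33 on the log2 scale (adjusted p = 0.00096 in limma with the block). Arid1b had 0.126 and 0.118 in solvent and 0.0292 and 0.0515 with MS-275, and fell by 1.53 (adjusted p = 0.00059 by the same fit). Arid2, the ARID subunit of the PBAF complex, had 0.232 and 0.167 against 0.143 and 0.0720, and fell by 0.92 (adjusted p = 0.0070). In each of the 3 genes both MS-275 values were below both solvent values, as in 9 of the 20 subunits and 12.0% of all genes tested. The 3 genes were named because the same values called them lower, so this adds no separate support.

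Bcl11b, a zinc finger subunit known from neurons and T cells, had 0.0268 and 0.0431 in solvent and 0.0084 and 0.0045 with MS-275, and fell by 1.79 on the log2 scale (adjusted p = 0.0010 in limma with the block). Bcl7a, a small accessory subunit, fell by 1.26 (adjusted p = 0.0018), from 0.0993 and 0.121 to 0.0471 and 0.0393. Bicral, a subunit of the non-canonical BAF complex that the files list under its older symbol BC032203, fell by 1.38 (adjusted p = 0.00064), from 0.364 and 0.386 to 0.185 and 0.107. Ss18l1 (CREST), the form of Ss18 found in neurons, had 0.0483 and 0.0271 in solvent and 0.0823 and 0.0471 with MS-275. On the values it was not called (0.71 on the log2 scale, adjusted p = 0.0625 in limma with the block), and on distinct positions with the block it rose by 0.54 (adjusted p = 0.0146 in limma-voom). The shared core subunit Smarcb1 was not called on the values (-0.43, adjusted p = 0.179 in limma with the block), and on distinct positions it fell by 0.61 with the block (adjusted p = 0.0037 in limma-voom, 0.0511 without it).

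**Figure D5:**
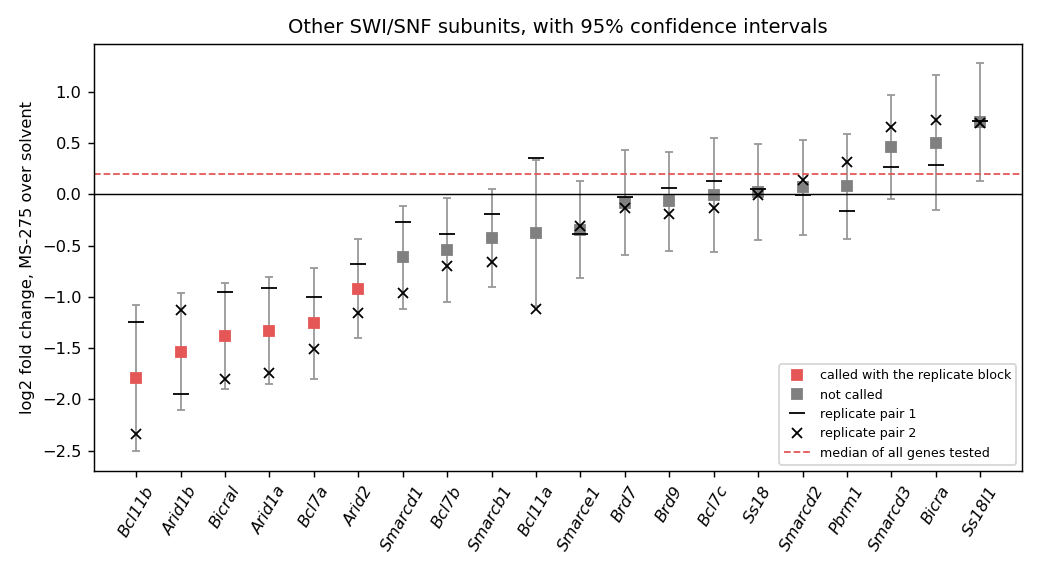
Log2 fold change of MS-275 over solvent for the 20 other SWI/SNF subunits from the values with the replicate block, with 95% confidence intervals; dashes and crosses are the values of pair 1 and pair 2, red squares are called genes and the dashed line is the median of all genes tested. The 6 called genes range from -0.92 (Arid2) to -1.79 (Bcl11b).

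Of 20 ATPases of other remodelling families, 3 fell and 0 rose on the values in limma with the block (Smarcad1, Atrx and Chd2), beside 6.46% of all genes lower and 21% higher, with a median log2 fold change of -0.08. These 3 were named after their values were seen. On the values without the block none was called, and 0 had an unadjusted p under 0.05. With the block and median-ratio scaling 5 were called lower and the median was -0.36. Over all genes the median was then -0.01, and the number called lower was larger too. On distinct positions limma-voom called 6 lower and 0 higher without the block, beside 9.8% and 14% of 15028 genes. With the block it called 10 lower and 1 higher, beside 22.5% and 24.7%.

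Of the marker lists of cell types, none had a member called on the values in limma without the block, and the counts of this paragraph are from the fit with it, in which 21% of all genes were called higher and 6.46% lower. Of 10 fibroblast genes, which mark feeder cells, 7 rose and 0 fell. Their summed signal was 0.324 and 0.277 in the solvent libraries and 0.643 and 0.659 in the MS-275 libraries, and Thy1 (log2 fold change 0.91) and Col1a2 (1.06) were the most abundant. Col3a1 and Dcn were lower with MS-275 in both pairs. Of 10 striated muscle genes 5 rose and 0 fell, with sums of 0.211 and 0.180 against 0.314 and 0.408, led by Tnni3 (1.06) and Myl7 (0.05). Of 10 neural progenitor genes 4 rose and 3 fell, with sums of 0.336 and 0.295 against 0.267 and 0.276, led by Msi1 (-0.60) and Nes (2.29). Of 10 neuronal genes 9 were listed and 8 tested, 2 rose and 0 fell, with sums of 1.22 and 2.28 against 1.17 and 2.19, led by Stmn2 (-0.48) and Tubb3 (0.27), and Dcx was under 0.001 in every library. Of 10 pluripotency genes 0 rose and 4 fell, with sums of 6.08 and 23.2 against 4.83 and 13.6, led by Dppa5a (-0.22) and Sox2 (-0.30), and all 10 were expressed in every library. The part of these cell types in the changes of Smarca2 and Dpf1 was not tested.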

How the data were processed

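RNA-seq was analysed in 4 libraries, 2 solvent and 2 MS-275, grouped by their titles and agents. Per the study's methods, 36-base Illumina GAIIx reads were mapped to mm9, and the authors obtained the deposited values, a normalized expression signal per gene, from Genomatix; the formula and the annotation are not given in the sources used here. The deposited alignments (35 bases, 9785619 to 23467935 per library) repeat positions in the replicate 1 files only (53.2% and 54.4%), so distinct positions were counted. Files of the authors' ratios and shorter copies of the values (6 in all) were not used.

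Values were tested with limma (3.58.1, R 4.3.3, trend) on log2(signal + 0.005) for 20336 genes at or over 0.001 in at least 2 libraries, with Benjamini-Hochberg adjustment over all genes and a threshold of 0.05; fold changes on this scale understate those of low genes. Values were not divided again by length. Positions over protein-coding exons (GENCODE M1, mm9, either strand) with at least 10 in 2 libraries were tested with limma-voom on median-ratio library sizes, and repeated 32-base words were counted in mm9. Both tests were tested on simulated data. The headers of the shorter tables name both replicate 1 libraries OLD, which is where the pairing comes from; same-numbered deviations correlated at 0.764 (values) and 0.518 (positions). Promoters are RefSeq sequences on GRCm38.p6 (10 of 10 matched), and no coordinate was moved between builds. All members are named, with the other subunits called with the block, the 3 genes nearest to the member that changed most (not reported here) and to the highest one, and the 2 highest markers of each list; Ss18l1, Smarcb1 and further markers were added after seeing values. The members and lists were chosen with earlier results of these data known.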

Additional observations from a re-analysis of the deposited data

How the results depend on the processing

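Without the block, no member and no other subunit was called on the values under any scaling, pseudocount, filter or variance model tried, nor with any 1 library left out (0 calls; the lone library of an arm is then assumed to vary like the others). The block gave 2 members higher, 3 with median-ratio scaling, 2 with quantile normalization, and 2 with a pseudocount of 0.001 or 0.02, and 0 lower in each. Distinct positions gave 1 higher and 1 lower, and 2 higher and 3 lower with the replicate block. On positions, every alignment gave 0 and 0, and with the replicate block, an alternative chosen after seeing the data, 2 and 3; leaving out 1 library gave 1 to 2 higher and 1 to 3 lower.

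Other subunits called lower numbered 6 with the replicate block, 10 with median-ratio scaling, 9 with quantile normalization, 6 with either pseudocount, 6 on distinct positions and 11 there with the block, which also gave 1 higher. Their median log2 fold change was -0.60 with median-ratio scaling (with or without the block) and on distinct positions, -0.59 on these with the block, and -0.60 to -0.15 with 1 library left out.

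Over all genes, the 1 call higher and 0 lower became 4277 and 1314 with the replicate block, 3379 and 2864 when it was joined to median-ratio scaling, 2936 and 2961 to quantile normalization, 4216 and 1220 to a pseudocount of 0.001, and 3790 and 1158 to one of 0.02. Calls higher were 0 without a trend, with median-ratio scaling, with quantile normalization, with either pseudocount and with no filter. A mean of at least 0.01 gave 466 and 65, distinct positions 2100 and 1473, these with the block 3717 and 3387, and 1 library left out 0 to 160 and 0 to 29. The median over all genes reversed to -0.014 with median-ratio scaling and to -0.032 with quantile normalization, each with or without the block, to -0.014 on distinct positions and to -0.013 on these with the block; it was 0.11 at a pseudocount of 0.02 (with or without the block), 0.060 with no filter and 0.10 to 0.33 with 1 library left out.

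The shift of Smarca2 over Smarca4 was 1.17 at a pseudocount of 0.02, 2.05 over distinct positions and 1.199 to 2.03 with 1 library left out. That of Smarcc2 over Smarcc1 turned to 0.055 over distinct positions and spanned -0.52 to 0.36 with 1 library left out (0.36 without solvent replicate 1, 0.15 without MS-275 replicate 2). Actl6b over Actl6a gave 1.54 at a pseudocount of 0.001 and 0.31 to 1.10 with 1 library left out, and Dpf3 over Phf10 -0.037 (without MS-275 replicate 1) to 1.60. Dpf3 over Dpf2 gave 1.78 and 0.51 at pseudocounts of 0.001 and 0.02, 0.58 with quantile normalization and 0.82 to 1.12 with 1 library left out. In the fold rule, at least 3-fold left 0 members higher in place of 3, beside 1815 genes higher over the whole series.

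Signs of members that were not called turned with 1 library left out. Smarca4 ranged from -0.54 to 0.23 (0.10 without solvent replicate 1, 0.23 without MS-275 replicate 2) and on positions from -0.42 to 0.0037 (without MS-275 replicate 1). Smarcc1 ranged from -0.50 to 0.13, Actl6a from -0.62 to 0.10 and Phf10 from -0.43 to 0.19. For these 3 the values without solvent replicate 2 were 0.13, 0.10 and 0.09, and those without MS-275 replicate 1 were 0.047, 0.047 and 0.19. Dpf2 ranged from -0.90 to 0.27 (without MS-275 replicate 2). The cause of these changes was not tested. Depth limits Actl6b and Dpf3, which had 0 to 7 positions per library.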
